A study of Homo sapiens with 2 samples.

Results

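The 9 genes described here encode the core of the hedgehog pathway, from the ligand Sonic hedgehog (SHH) through its receptors and binding proteins (PTCH1, HHIP, BOC, CDON and GAS1) to the GLI transcription factors (GLI1, GLI2 and GLI3). They were taken by gene symbol from the count tables, where each stood on a single row, and make up 9 of 24462 symbols. RNA sequencing was done on neural precursor cells (NPC) that were differentiated from the human embryonic stem cell line H9 on a layer of MS5 cells, and on undifferentiated H9 cells (hESC), the starting population. H9 is an established human pluripotent line, and MS5 cells are mouse stromal feeder cells. Each group is 1 library from 1 cell line, no further treatment is named in the labels, and no passage or day is given there. The differences below are therefore between these 2 libraries, without a replicate check and without any test between conditions.

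In the hedgehog pathway the ligand binds PTCH1, which otherwise keeps the transducer SMO inactive at the primary cilium. BOC, CDON and GAS1 are co-receptors that help PTCH1 to bind the ligand, and HHIP is a membrane-anchored protein that binds and sequesters it. Active SMO lets GLI2 and GLI3 act as activators, while without ligand GLI3 in particular is processed into a repressor. PTCH1, HHIP and GLI1 are themselves transcribed in response to the signal in many tissues, whereas BOC, CDON and GAS1 are reduced by it in the mouse neural tube. In the developing brain and spinal cord SHH from the ventral midline patterns the neural tube from ventral to dorsal.

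The NPC library held 24065750 counted reads and the hESC library 19686728. Levels are given as reads, as CPM (the usual read count relative to library size, here scaled by trimmed mean of M-values, TMM) and, where genes are set beside each other, as CPM per kilobase of the longest annotated transcript. All 5 pluripotency markers were lower in the NPC library and 5 of 7 measured neural progenitor markers were higher. Of 5 neuron markers, 4 were higher as well. Of the markers with 5 CPM or more in hESC, 3 of 5 progenitor and 3 of 4 neuron markers were higher. Among all such genes 11.7% were higher and 22.6% lower, and among all measured genes 19.6% and 19.8%. The progenitor markers SOX2 and NES and the neuron marker TUBB3 were called neither way, with ratios of 1.33, 1.03 and 0.917. Of 14 stroma markers, 12 were measured, 8 were higher and 3 lower. Of the 6 with 5 CPM or more in hESC, 2 were higher and 3 lower. The other measured ones reached 5 CPM in the NPC library alone, and 77% of all genes of that kind were higher. The summed level of the 14 was 1069 CPM in the NPC library and 794 CPM in the hESC library. None of the 14 was at 0 in the NPC library. COL3A1, a fibrillar collagen gene, had the largest ratio of the 14, with 7837 NPC reads and 11 hESC reads. The 3 lower ones, CXCL12, THY1 and TAGLN, had 19, 639 and 527 NPC reads and 287, 4635 and 1955 hESC reads. Stromal cells express hedgehog receptors and GLI genes too, and the part of such cells, or of mouse feeder RNA read as human, in the values below was not tested. In bulk RNA, more cells that express a gene and more RNA per cell cannot be told apart.

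The NPC library held more RNA of the hedgehog receptor PTCH1, of GLI3 and of the ligand-binding proteins BOC and HHIP, while GLI2 and the co-receptor gene CDON had fewer CPM than in hESC, with ratios of 0.667 and 0.859 that are within the rule given next. A gene was called measured with at least 5 CPM in either library, and higher or lower when the nearer bound of its exact 95% counting interval was at least 2-fold from no change. Under this size rule 4 of the 9 genes were higher (PTCH1, GLI3, BOC and HHIP), none was lower, 3 were measured and within the rule (GLI1, GLI2 and CDON), and SHH and GAS1 lay below the filter in both libraries. Of all 13535 measured genes, 19.6% were higher and 19.8% lower. The filter matters for this count. PTCH1, GLI1, GLI2, GLI3 and CDON reached 5 CPM in the hESC library, where either direction was open to them, and 2 of these 5 were higher, against 11.7% higher and 22.6% lower among all 11897 such genes. BOC and HHIP passed only through their NPC level, so that no lower call was open to them, although BOC, at 4.95 CPM in hESC, missed the filter there only narrowly. Of all genes of that kind, 77% were higher. Without a filter SHH and GAS1 were also higher, which made 6 of 9, where 16.6% of all 21965 symbols with reads were higher and 15.3% were lower. On the log2 scale the ratio of NPC over hESC had a median of 1.99 over the 9 genes and of 0.11 over all symbols with reads.

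**Figure D1:**
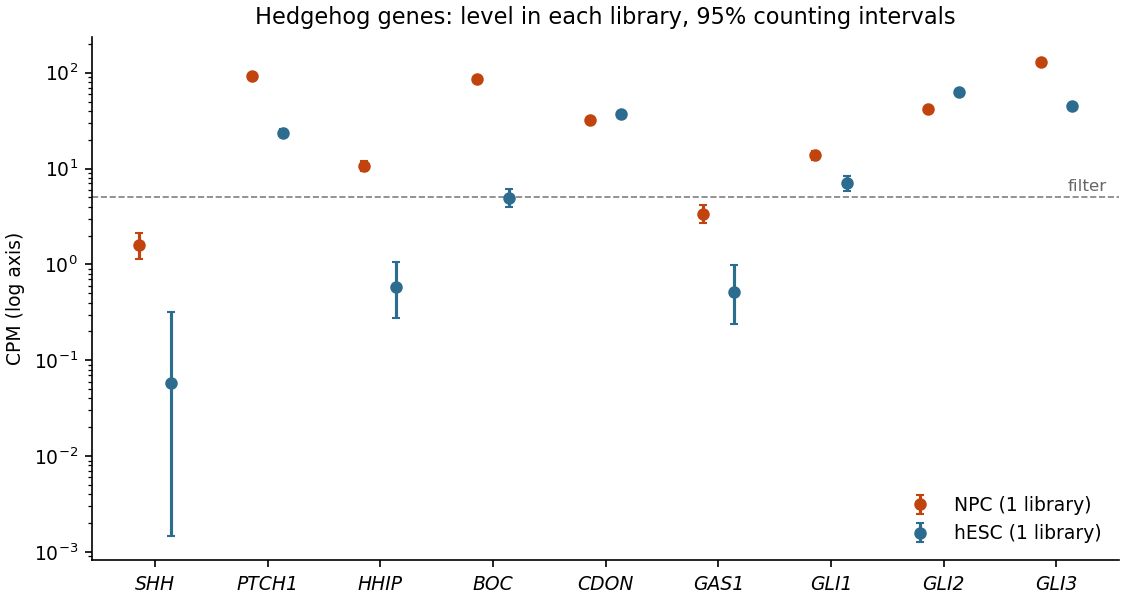
Level of each hedgehog gene in CPM on a log axis, in the NPC library (left point of each pair) and the hESC library (right point), with exact 95% counting intervals and the filter of 5 CPM as a dashed line. SHH and GAS1 stay under the filter in both libraries, BOC and HHIP lie under it in hESC alone, and GLI2 and CDON are the 2 genes with the lower point in NPC.

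The ligand was scarce in both libraries. SHH had 43 reads in the NPC library and 1 read in the hESC library, or 1.58 CPM and 0.0575 CPM. The ratio was 18.5, with an interval of 4.68 to 1110 that is wide because of the single hESC read. IHH (Indian hedgehog) had 1 NPC read and 2 hESC reads, and DHH (Desert hedgehog) had 1 NPC read and 0 hESC reads, which allows up to 0.173 CPM. SHH was thus the ligand gene with nearly all of the 45 ligand reads of the NPC library.

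Genes that prepare and release the ligand were covered better. HHAT, the acyltransferase that adds palmitate to hedgehog proteins, had 172 reads in NPC and 8 in hESC, a ratio of 13.0 (6.82 to 32.3). SCUBE3, of a family of secreted proteins that help to release the lipid-modified ligand, had 64.1 CPM in NPC and 3.62 CPM in hESC, a ratio of 17.6 (13.8 to 23.1). Of 6 genes in this list 4 were measured, 2 were higher and none was lower. HHAT and SCUBE3 passed the filter only through their NPC level, where 77% of all such genes were higher, and the 1 gene that reached it in hESC (SCUBE1, named after its values were seen) was within the rule.

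PTCH1, the receptor that binds the ligand, had 2534 reads (93.2 CPM) in the NPC library and 406 reads (23.4 CPM) in the hESC library, a ratio of 3.98 (3.59 to 4.44). SMO, which passes the signal on, had 80.7 CPM in NPC and 47.1 CPM in hESC, a ratio of 1.71 (1.58 to 1.86) that is within the size rule. There were 1.15 PTCH1 reads for each SMO read in NPC and 0.496 in hESC. This proportion does not depend on how the libraries are scaled, and it was 2.33 times as high in NPC (2.04 to 2.66). It is not corrected for transcript length.

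PTCH1 is a direct target of GLI proteins, which bind the sequence GACCACCCA, and its promoter carried that motif. The 250 bases before each annotated start were searched on both strands in the RefSeq promoter table (GRCh38.p14), which had entries for 7 of the 9 genes and not for GLI1 and GLI3. The motif was found before 1 of the 5 listed PTCH1 starts, on the strand opposite to the gene, between 172 and 164 bases upstream of that start. It was in none of the promoters of SHH, GLI2, HHIP, BOC, GAS1 or CDON, and in 0.199% of all 35116 promoters searched. A second PTCH1 promoter held it with 1 mismatch, and 5.81% of all promoters held it with at most 1 mismatch. The PTCH1 promoter is shown with the motif in capitals, read on the gene's strand, and the HHIP promoter is shown beside it as that of another target without the motif in this window. The first lies at chr9:95509267-95509516 on the minus strand and the second at chr4:144645906-144646155 on the plus strand.
PTCH1: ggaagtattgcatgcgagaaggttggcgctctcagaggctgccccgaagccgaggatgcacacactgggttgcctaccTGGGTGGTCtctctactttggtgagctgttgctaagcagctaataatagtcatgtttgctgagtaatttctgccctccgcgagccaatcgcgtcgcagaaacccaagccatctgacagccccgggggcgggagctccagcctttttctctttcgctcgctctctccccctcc
HHIP: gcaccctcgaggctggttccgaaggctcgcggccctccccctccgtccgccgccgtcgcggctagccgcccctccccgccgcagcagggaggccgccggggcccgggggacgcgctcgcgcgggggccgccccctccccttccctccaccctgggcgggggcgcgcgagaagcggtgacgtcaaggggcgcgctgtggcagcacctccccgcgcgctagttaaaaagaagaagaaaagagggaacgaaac
A match is a description of letters and shows no binding. Among measured genes with the motif before a start, 3 of 28 were higher in NPC (10.7%) and 4 were lower (14.3%), against 18.5% and 19.5% of all 10039 measured genes with a promoter in the table.

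HHIP, whose protein takes up the ligand at the cell surface, had 290 reads in NPC and 10 in hESC, or 10.7 CPM and 0.575 CPM. The ratio was 17.7 (9.93 to 39.1). The proportion of HHIP to PTCH1 reads was 4.65 times as high in NPC (2.46 to 9.88). The antisense gene HHIP-AS1 shares 178 exon bases with HHIP in GENCODE 29 and had 61 NPC reads and 1 hESC read. Reads in those bases cannot be assigned to one of them, since the strand setting of the counts is not given in the sources used here.

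The co-receptors differed from one another. BOC had 2336 reads (85.9 CPM) in the NPC library and 86 reads (4.95 CPM) in the hESC library, a ratio of 17.3 (14.0 to 21.8). CDON, a close relative of BOC in the immunoglobulin superfamily, had 32.0 CPM in NPC and 37.3 CPM in hESC, a ratio of 0.859 (0.775 to 0.952). GAS1, a membrane-linked co-receptor of another family, had 92 and 9 reads in NPC and hESC, a ratio of 6.22 (3.30 to 14.7), at no more than 3.38 CPM. In NPC the level per kilobase was thus highest for BOC, and in hESC for CDON. BOC made up 76.1% of the 3 genes' reads per kilobase in NPC (74.7 to 77.4) and 16.8% in hESC (13.7 to 20.2), and CDON made up 17.8% in NPC and 79.6% in hESC. The BOC to CDON proportion was 20.2 times as high in NPC (15.9 to 25.9), again independent of scaling. BOC shares 513 exon bases with CFAP44, a cilium and flagellum gene on the opposite strand that had 1939 NPC reads and 34 hESC reads, so part of the reads of either gene cannot be assigned with the strand setting unknown. CDON shares 2831 exon bases with VSIG10L2, and PTCH1 shares 711 with AL161729.1, also on the opposite strand. These neighbours have no counts under those symbols, so what they add to the CDON and PTCH1 reads is unknown.

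The 3 GLI genes also went separate ways. GLI3, the main GLI repressor of the forebrain, had 3528 reads (129.7 CPM) in NPC and 779 reads (44.8 CPM) in hESC, a ratio of 2.89 (2.68 to 3.13). GLI2, the main activator, had 1152 and 1104 reads in NPC and hESC, or 42.3 CPM and 63.5 CPM, a ratio of 0.667 (0.613 to 0.725). GLI1, which is made in response to the signal and acts as an activator, had 13.7 CPM in NPC and 7.08 CPM in hESC. Its ratio of 1.93 (1.58 to 2.40) is within the size rule, although the interval excludes equality. All these intervals cover counting error only.

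Within the GLI family the leading gene was GLI3 in NPC and GLI2 in hESC, in reads and in reads per kilobase of the longest transcript. Per kilobase of the median transcript, GLI3 led in both libraries, with 88.0% in NPC and 66.9% in hESC, while GLI2 had 8.98% in NPC and 29.6% in hESC. The values that follow use the longest transcript. GLI3 made up 61.2% of GLI reads per kilobase in NPC (59.7 to 62.6) and 32.6% in hESC (30.6 to 34.6). GLI2 made up 24.1% in NPC (22.9 to 25.3) and 55.7% in hESC (53.5 to 57.9). The share of GLI1 was 14.7% in NPC (13.4 to 16.1) and 11.7% in hESC (9.86 to 13.7). The GLI3 to GLI2 proportion was 4.34 times as high in NPC (3.87 to 4.87) and that of GLI1 to GLI2 was 2.91 times as high (2.32 to 3.65). Counts per gene do not tell the full-length GLI3 protein from its repressor form, which is made by processing of the protein.

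**Figure D2:**
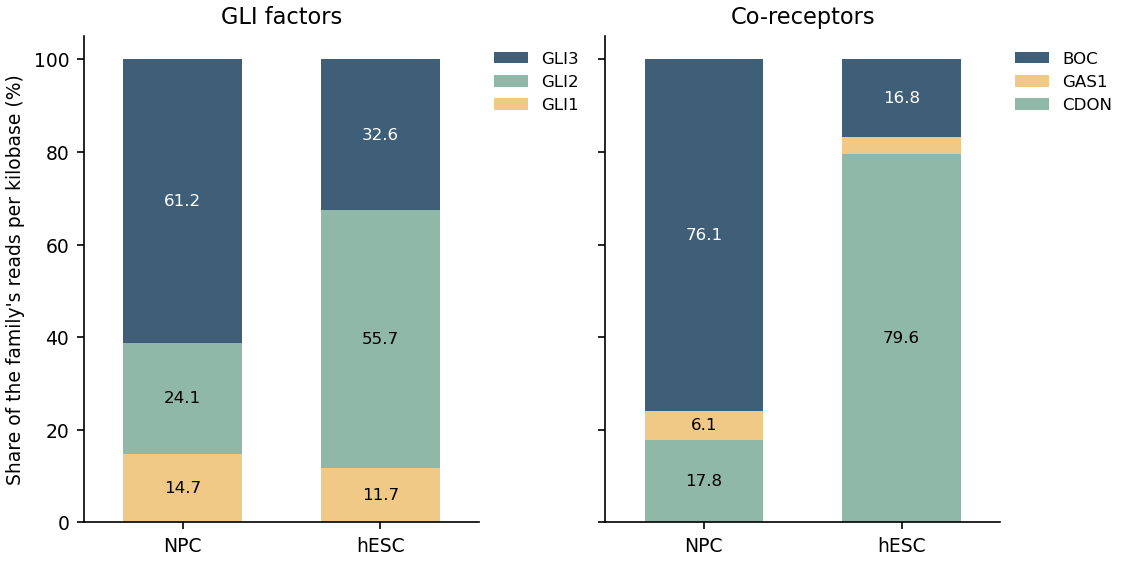
Share of each gene in the reads per kilobase of its family, in percent, for the GLI factors (left panel) and the co-receptors (right panel), with NPC left of hESC in each. With the longest transcript as length, GLI3 takes 61.2% in NPC and 32.6% in hESC, and BOC takes 76.1% in NPC and 16.8% in hESC.

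PTCH1 and GLI1, both induced by the signal, did not differ between the libraries by the same factor. The PTCH1 to GLI1 proportion was 6.79 in NPC reads and 3.30 in hESC reads, 2.06 times as high in NPC (1.62 to 2.60). It is not corrected for transcript length. A correction chosen after seeing the data changed the log2 ratio of PTCH1 from 1.99 to 1.55 and that of GLI1 from 0.95 to 0.91. HHIP to GLI1 was 9.54 times as high in NPC (4.90 to 20.8). GLI1 was thus the one of these 3 target genes with the smallest ratio.

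Levels per kilobase of the longest transcript put the members in a different order in each library. In NPC GLI3 (15.8 CPM per kilobase) and BOC (14.9) came first, with overlapping counting intervals. PTCH1 (8.76) and GLI2 (6.23) followed, each apart from its neighbours. GLI1 (3.80) and CDON (3.50) overlapped, as did GAS1 (1.20) and HHIP (1.06), and SHH (0.355) was last. In hESC the order was GLI2 (9.34 CPM per kilobase), GLI3 (5.46) and CDON (4.08), each apart from the next, followed by PTCH1 (2.20) and GLI1 (1.96), which overlapped. BOC (0.860) was apart from its neighbours, and of GAS1 (0.183), HHIP (0.0571) and SHH (0.0129) each neighbouring pair overlapped. The order depends on the transcript length used. With the median length, GLI3 came before GLI2 in hESC (68.6 and 30.4 CPM per kilobase), and with the longest protein-coding transcript, BOC came before GLI3 in NPC (18.5 and 15.8). Among symbols with reads and a known length, by the longest transcript, GLI3 stood at percentile 81.7 in NPC and 59.0 in hESC, and BOC at percentile 80.5 in NPC and 30.7 in hESC.

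**Figure D3:**
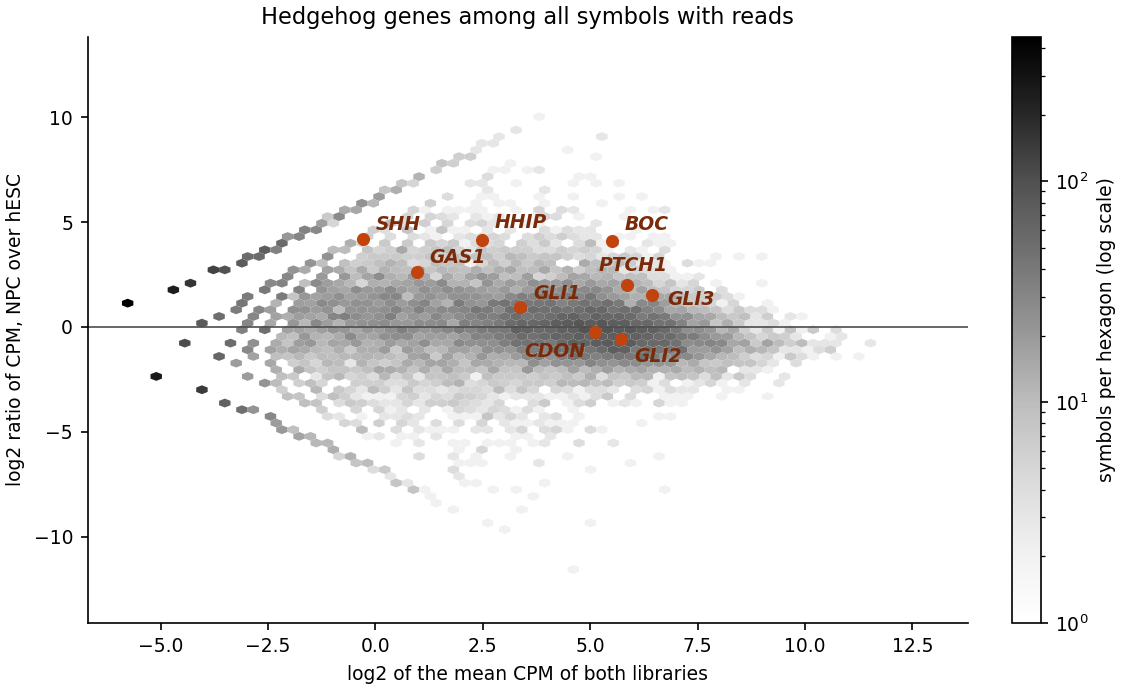
Log2 ratio of CPM, NPC over hESC, against the log2 of the mean CPM of both libraries, for all symbols with reads (grey hexagons, darker with more symbols) and the 9 hedgehog genes (orange points). BOC lies above the dense band of genes of its abundance, at a log2 ratio of 4.11, while CDON (-0.22) and GLI2 (-0.58) lie in the dense centre.

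Proteins that tune SMO and the GLI factors differed less. All 22 genes of this list were measured and reached 5 CPM in the hESC library. Of these, 4 were higher and none was lower, where 11.7% of all genes reaching the filter in hESC were higher and 22.6% lower. With the library total 10 of the 22 were higher, a scaling under which 27% of all measured genes were higher. With TMM the log2 ratios of the 22 had a median of 0.58. The median was -0.27 for all genes reaching the filter in hESC and -0.09 for all measured genes. GPR161, a ciliary receptor that keeps the pathway off through cyclic AMP, had a ratio of 6.88 (5.90 to 8.12), with 67.9 CPM in NPC and 9.84 CPM in hESC. SPOP, an adaptor for the degradation of GLI2 and GLI3, had a ratio of 3.50 (3.07 to 4.03), and the kinase gene STK36 one of 2.79 (2.47 to 3.17). SUFU, the cytoplasmic inhibitor of GLI proteins, had 32.6 CPM in NPC and 16.5 CPM in hESC, a ratio of 1.98 (1.73 to 2.27) within the rule. The GLI3 to SUFU proportion was 1.46 times as high in NPC (1.25 to 1.71).

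Cilium genes with a role in hedgehog signalling were higher in most cases. Of 17 measured genes, 11 were higher and 1, EVC2, was lower. Their log2 ratios had a median of 1.68. Of the 15 that reached the filter in hESC, 9 were higher, against 11.7% of all such genes, and over all measured genes 19.6% were higher and 19.8% lower. IQCE, part of the complex that holds EVC proteins at the cilium base, had a ratio of 6.14 (5.35 to 7.11). TCTN1, of the transition zone, had a ratio of 6.47 (5.25 to 8.12), and the transport gene IFT88 one of 5.60 (4.76 to 6.67). EVC2, whose protein acts with SMO, was 2.51-fold lower (2.03 to 3.13), with 140 reads in NPC and 225 reads in hESC, and this call was lost with upper-quartile factors and with the library total.

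Other proteins that bind the ligand went both ways. GPC3, a glypican that competes with PTCH1 for the ligand in the mouse, had 958.5 CPM in NPC and 88.1 CPM in hESC, a ratio of 10.9 (10.3 to 11.5). The glypican gene GPC4 was 4.55-fold lower (4.36 to 4.76), with 2585 reads in NPC and 7524 reads in hESC. With BOC and HHIP included, 4 of 7 measured genes of this list were higher and 1 was lower. Of the 4 that reached the filter in hESC, 1 (GPC3) was higher and 1 (GPC4) was lower, against 11.7% higher and 22.6% lower over all such genes.

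**Figure D4:**
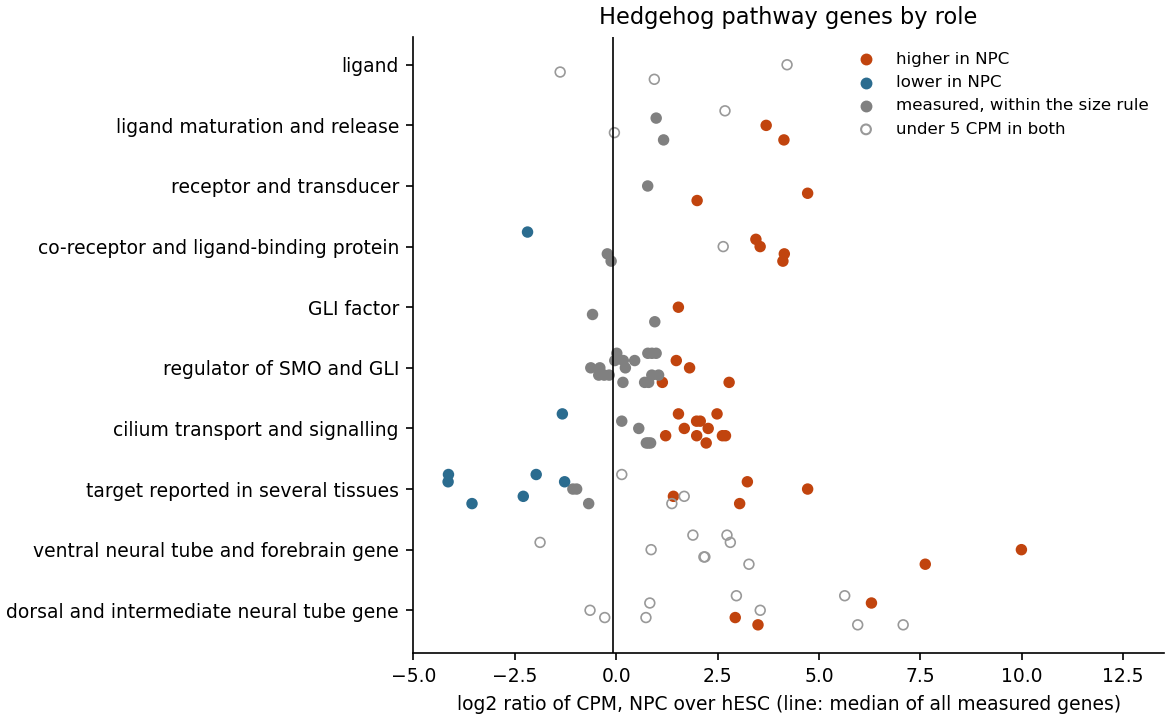
Log2 ratio of CPM, NPC over hESC, for each gene of the role lists, with 1 point per gene, coloured by its call under the size rule (open points are under 5 CPM in both libraries). The cilium list lies mostly right of the line at -0.09, the median of all measured genes, and the targets reported in several tissues spread to both sides.

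Genes reported elsewhere as hedgehog targets lay on both sides. This list leaves out the targets PTCH1, GLI1 and HHIP, whose ratios of 3.98, 1.93 and 17.7 are given above. Of 16 genes 13 were measured, of which 4 were higher and 6 were lower, against 19.6% and 19.8% of all measured genes. Of the 10 that reached the filter in hESC, 1 was higher and 6 were lower, against 11.7% and 22.6% of all such genes. The median log2 ratio of the 13 measured genes was -1.07. BCL2, an apoptosis inhibitor gene, had 28.2 CPM in NPC and 3.39 CPM in hESC, a ratio of 8.24, and the forkhead gene FOXD1 had one of 9.40 (5.21 to 20.9). HSD11B2, which inactivates cortisol, was 17.7-fold lower (11.7 to 29.3) with 22 and 254 reads in NPC and hESC. IGFBP6 was 17.6-fold lower (10.1 to 36.2) and SPP1, the gene of osteopontin, 11.8-fold lower (9.79 to 14.3). Many of these genes respond to other signals as well.

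Genes that SHH switches on or off along the neural tube were mostly under the filter. Among 10 ventral genes 2 were measured and both were higher. NKX2-1, a factor of the hypothalamus and ventral telencephalon, had 2387 NPC reads and 1 hESC read, and NKX6-1 had 769 and 2 reads in NPC and hESC, a ratio of 196.7 (67.8 to 2032). FOXA2, NKX2-2 and OLIG2, named here after their values were seen, had 60, 5 and 21 reads in NPC and 8, 0 and 50 reads in hESC. All 3 genes, factors of the floor plate and of ventral progenitors, were thus under 5 CPM in both libraries. The ratio was 4.55 (2.28 to 11.6) for FOXA2 and 0.272 (0.153 to 0.455) for OLIG2. FOXA1, also under the filter, had 128 and 8 reads in NPC and hESC, a ratio of 9.66 (5.04 to 24.2). Without a filter 5 of the 10 ventral genes were higher and 1 was lower. Of all symbols with reads, 16.6% were then higher and 15.3% lower. Among 12 dorsal and intermediate genes 3 were measured and higher. Without a filter 8 of the 12 were higher and none was lower. PAX6, also 1 of the neural progenitor markers above, had 2269 and 18 reads in NPC and hESC. MSX1 had a ratio of 11.3 (6.93 to 21.1) and MSX2 one of 7.64 (4.41 to 15.7). For each of the 5 measured genes of both lists the hESC level was under the filter, so that no lower call was open. Of all genes that passed only through their NPC level, 77% were higher.

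The ratios between libraries depend on the scaling. With the library total in place of TMM every log2 ratio is larger by 0.36, the median of all measured genes is 0.31 and 27% of them are higher. GLI1 then passes the size rule (log2 ratio 1.31 against 0.95 with TMM) and CDON turns to the higher side (0.14 against -0.22). PTCH1, GLI3, BOC and HHIP were higher under all 4 scalings tried.

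**Figure D5:**
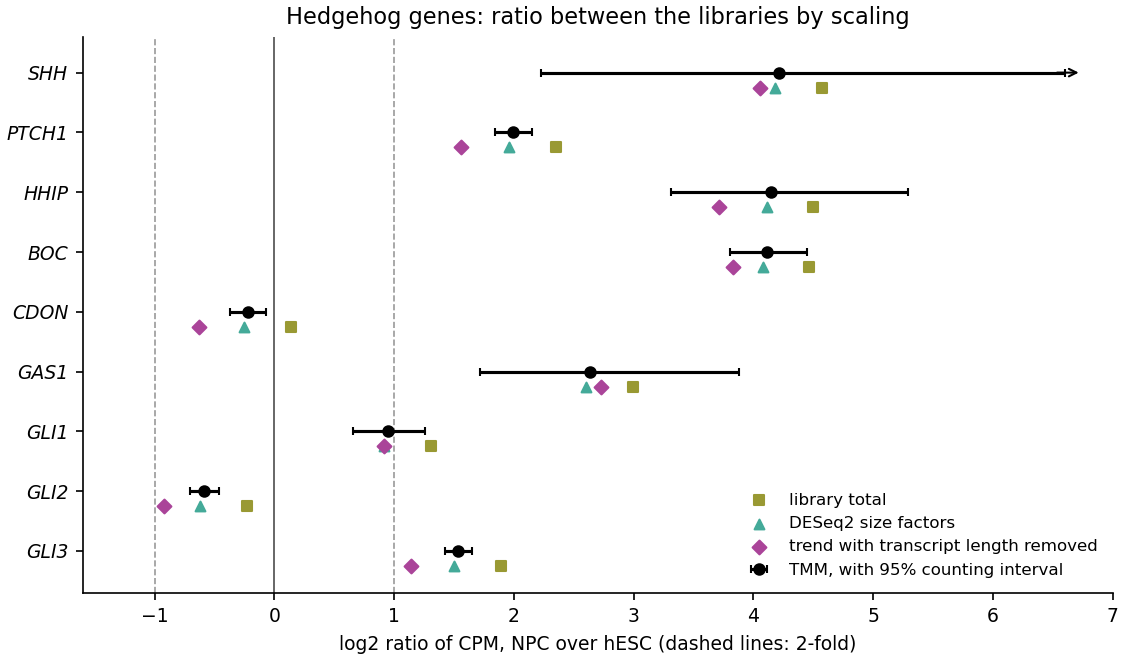
Log2 ratio of CPM, NPC over hESC, of each hedgehog gene with TMM scaling (black, with exact 95% counting interval; the arrow marks an upper bound beyond the axis) and under 3 alternatives (coloured symbols); dashed lines mark 2-fold. PTCH1, HHIP, BOC and GLI3 stay right of the 2-fold line throughout, GLI1 lies on either side of it, and CDON lies on either side of 0.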

How the data were processed

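RNA of 1 NPC and 1 hESC library was sequenced from total RNA with a SMARTER mRNA-Seq kit, per the labels' protocols. The tables deposited by the authors hold whole-number read counts for each gene symbol, with no normalization. The submitters' processing notes name hg19, TopHat and edgeR without a role. How reads were counted, on which strand and with which annotation is not given in the sources used here.

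Of the rows of a repeated symbol the one with most reads was kept. Libraries were scaled with edgeR 4.0.16 TMM factors (1.13 for NPC, 0.884 for hESC; R 4.3.3). Ratios have 0.5 added to each count, and intervals are exact (Clopper-Pearson, 95%) on the NPC share of a gene's reads, or conditional exact for proportions between genes. Share intervals are those of the read share, moved to reads per kilobase. They cover counting error only and say nothing of other cultures. Without molecular identifiers, reads may be copies of 1 molecule. The filter of 5 CPM equals 136 NPC reads and 86.9 hESC reads. Transcript lengths come from GENCODE 29 and promoters from RefSeq. The ratio code was tested on simulated counts. Python 3.11.15, scipy 1.17.1, pandas 2.3.3, statsmodels 0.14.6 and matplotlib 3.10.9 were used, and DESeq2 1.42.0 for its size factors.

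Members, role lists and settings were chosen with earlier results of these data known. Named from each list were up to 3 higher and 3 lower genes by the bound farthest from no change, plus IHH, DHH, SMO and SUFU. A result on 1 further gene is not reported here. Genes named as neighbours, examples or markers are outside that rule. Likeness of pattern was not ranked, since 2 libraries give no pattern.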

Additional observations from a re-analysis of the deposited data

How the results depend on the processing

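No paired analysis was possible because each group has 1 library, and for the same reason no replicate could be left out. Scaling by the library total raised the count of higher members to 5 of 7 measured (4 of 7 in the report), with 27% of all measured genes higher. It was 6 of 9 when the filter was set to 1 CPM or dropped, with 20.4% and 16.6% of all genes higher. At 20 CPM, where HHIP and GLI1 also fell below the filter, it was 3 of 5, with 18% of all genes higher. It was 2 of 7 with a bound of 4-fold, where BOC and HHIP passed and 9.13% of all genes were higher. With 18.7% to 23.5% of all genes higher, it was 4 of 7 under the other 6 alternatives. These include a correction for transcript length, chosen after seeing the data, under which the log2 ratio of PTCH1 was 1.55 and that of GLI3 1.14. No member was lower under any of the 11 alternatives. CDON changed sign with the library total (0.14), as all ratios then shift. With the 4-fold bound 18 pathway list genes were higher and 5 lower (32 and 8 of 73 measured with the 2-fold bound), as were 1236 and 983 of all measured genes. With a filter at 20 CPM 5 list genes were lower and 1684 measured genes were higher. The share of GLI3, NPC minus hESC, was 28.6 points with the longest transcript, 31.0 without length and 21.1 with the median transcript length, under which that of GLI1 changed sign (-0.41 points, against 3.01 with the longest). The cause of these shifts beyond the construction of each alternative was not tested. Depth limits SHH, GAS1 and HHIP, which rest on 10 or fewer hESC reads each.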
